A study of Caenorhabditis elegans with 2 samples.

Results

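The 31 genes described here encode the Wnt pathway of Caenorhabditis elegans: 5 ligands, 3 proteins that handle the ligands, 6 receptors, 15 intracellular components and 2 planar polarity proteins. They were chosen by name, with earlier counts of peaks from the same data in view, so the counts of bound members are descriptions and carry no test. All 31 were found among the 19973 nuclear protein-coding genes. Binding was measured by ChIP-seq of the Distal-less type homeodomain protein CEH-43 in embryos of strain OP699, genotype unc-119(tm4063), in which the transgene wgIs699 supplies ceh-43::TY1::EGFP::3xFLAG together with unc-119(+). Per the labels, embryos came from egg bleaching, were of mixed stage and mixed sex with a stated age of 3 hours, and were whole organisms, so the cells in which a site was bound are unknown. There were 2 biological replicates of this 1 group. Whether the replicates came from separate cultures is not given in the labels, and all samples carry both the tagged protein and the rescued unc-119 mutation.

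Wnt proteins are secreted, lipid-modified signals that polarise and specify embryonic cells. They bind Frizzled, Ror or Ryk receptors, and Dishevelled proteins relay the signal. In the absence of signal a destruction complex of APC, Axin and kinases holds beta-catenin low. In the worm embryo a beta-catenin asymmetry pathway sets the ratio of the coactivator SYS-1 to the TCF factor POP-1 in sister cells, and the kinase LIT-1 with the beta-catenin WRM-1 drives POP-1 out of the nucleus. CEH-43 is known to help specify dopamine neurons, and Distal-less type homeodomains bind the core TAATTR, where R is A or G.

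The sites below are examples of strong and weak sites at Wnt genes. The weak ones shown were limited to sites with TAATTR, so the mix does not show how often sites hold the word. Those shares are given further below. Each is the forward strand of WBcel235 (the same assembly as ce11) from 50 bp before to 50 bp after a summit, in the RefSeq copy, and capitals mark TAATTR on either strand. The first 2 are thresholded sites with the word, the next 4 are thresholded sites without it, and the last 3 are lower-ranked sites with it. Ranks are those of the pooled list, explained in the next paragraph.
mom-1, rank 251, chrX:6296473-6296573: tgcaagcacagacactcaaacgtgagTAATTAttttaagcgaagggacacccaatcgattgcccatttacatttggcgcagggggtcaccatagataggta
prkl-1, rank 481, chrIV:6985101-6985201: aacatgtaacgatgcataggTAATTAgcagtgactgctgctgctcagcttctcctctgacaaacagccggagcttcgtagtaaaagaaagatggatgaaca
mom-1, rank 98, chrX:6292262-6292362: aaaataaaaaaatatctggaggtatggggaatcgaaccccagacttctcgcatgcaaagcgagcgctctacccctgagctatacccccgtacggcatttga
cam-1, rank 743, chrII:9308839-9308939: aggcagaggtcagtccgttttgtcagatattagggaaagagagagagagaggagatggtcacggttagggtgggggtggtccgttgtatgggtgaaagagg
lit-1, rank 877, chrIII:13721267-13721367: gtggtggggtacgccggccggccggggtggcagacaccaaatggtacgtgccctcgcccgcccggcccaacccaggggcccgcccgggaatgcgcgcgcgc
mig-5, rank 914, chrII:8185120-8185220: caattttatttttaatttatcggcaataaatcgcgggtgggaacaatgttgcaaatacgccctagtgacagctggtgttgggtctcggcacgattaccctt
tap-1, rank 1308, chrX:14589179-14589279: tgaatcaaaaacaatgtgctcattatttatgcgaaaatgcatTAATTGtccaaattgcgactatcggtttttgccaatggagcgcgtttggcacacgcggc
cam-1, rank 1313, chrII:9313629-9313729: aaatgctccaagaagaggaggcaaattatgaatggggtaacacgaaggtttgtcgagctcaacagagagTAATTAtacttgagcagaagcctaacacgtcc
cwn-2, rank 27751, chrIV:10065627-10065727: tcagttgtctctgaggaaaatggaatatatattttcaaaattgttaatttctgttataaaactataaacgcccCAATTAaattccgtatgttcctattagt

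The authors deposited 4 peak lists: a relaxed list for each replicate (29979 and 26127 peaks), a relaxed list from both replicates together (30000 peaks, here the pooled list), and a shorter list kept by an irreproducible discovery rate step (thresholded, with 975 nuclear peaks). Every thresholded peak was stronger than every peak of the pooled list left out of it, and those left out are the lower-ranked sites. Some peaks of the pooled list overlap, so a lower-ranked site can be a second summit beside a stronger one, as at lit-1 and lin-17. A summit was assigned to a gene when it lay in the gene or within 5000 bp of one of its annotated transcript starts. Signal is the peak caller's own value on a scale that the sources used here do not give, so peaks were compared within a list and by rank. The lowest thresholded signal was 139 and the median over the nuclear ones was 185. Read depth is unknown from these lists.

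CEH-43 had thresholded summits at 9 of the 31 Wnt genes (29.0%), against 10.1% of all nuclear protein-coding genes in the same window. No ligand gene had one (0 of 5). Of the other roles, 3 of 6 receptor genes (mom-5, lin-17, cam-1), 4 of 15 intracellular genes (sys-1, pop-1, lit-1, mig-5), 1 of 3 ligand-handling genes (mom-1) and 1 of 2 planar polarity genes (prkl-1) did. The exact 95% intervals, which cover counting error over genes only, were 0 to 52.2% for ligands, 11.8 to 88.2% for receptors and 7.79 to 55.1% for intracellular genes. They overlap widely, and the difference between the roles was not tested. The 9 genes had 12 thresholded summits among the 975, and no summit lay in the windows of 2 members.

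Longer windows hold more summits, and many Wnt genes are long or have several starts. Among genes whose window was above the upper quartile of 10.2 kb, 6 of 15 Wnt genes had a thresholded summit against 14.0% of all such genes. Among genes with shorter windows it was 3 of 16 against 8.84%. All 5 ligand genes were in the shorter class, each with a window of 10.0 kb. With 5 genes, a count of 0 says little beside the 8.84% of that class, and it was not tested. The part of window length in the difference between roles was not tested. By chromosome the Wnt count was 4 of 11 on chromosome I, where 13.6% of genes had a thresholded summit, 2 of 6 on II (9.97%), 1 of 3 on III (14.0%), 1 of 4 on IV (10.0%), 1 of 5 on X (11.6%) and 0 of 2 on V (5.55%).

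**Figure D1:**
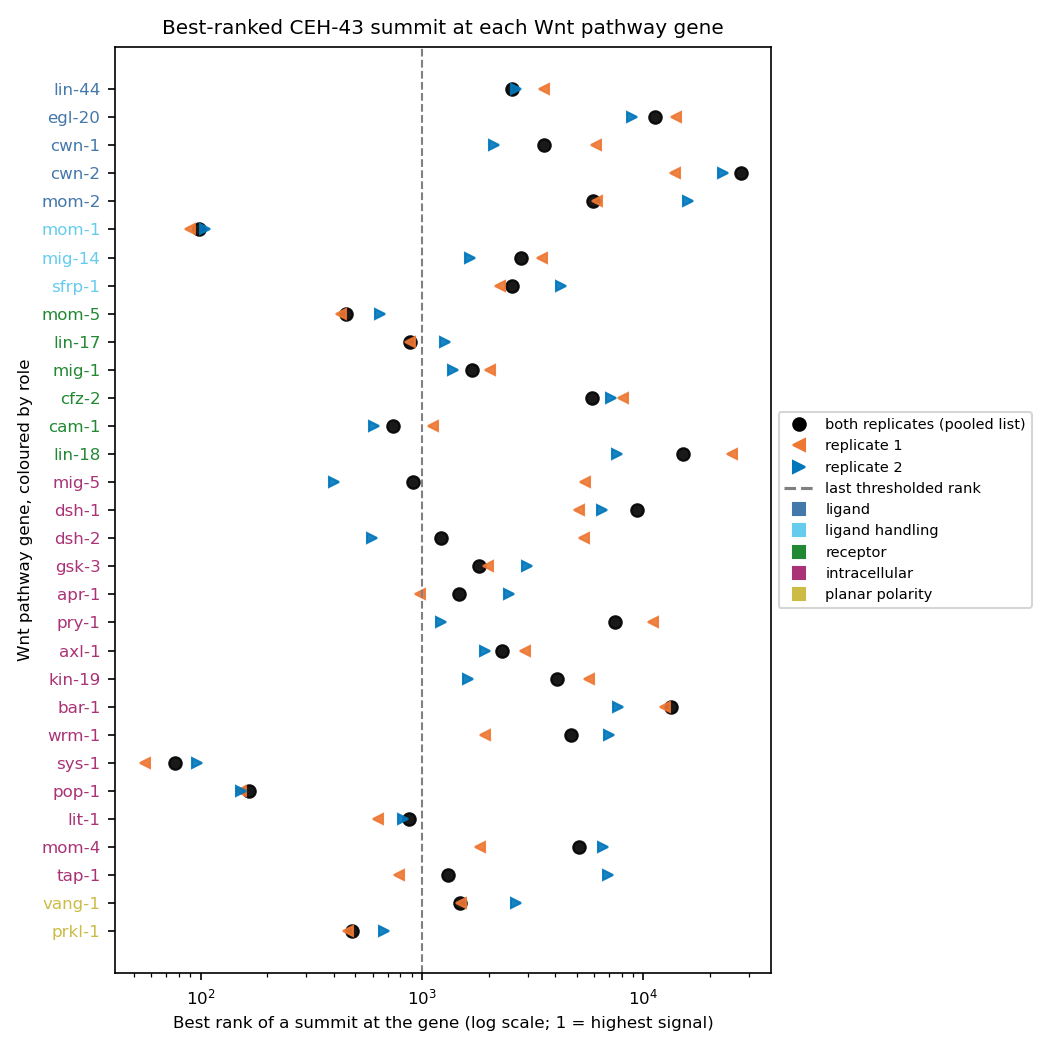
Best rank (log scale) of any summit in each Wnt gene's window, in the pooled list (black) and in each replicate's own list (triangles), with gene names coloured by role; the dashed line is the last thresholded rank. A replicate's best summit need not be the pooled one. The black points of sys-1 (77), mom-1 (98) and pop-1 (165) lie farthest to the left, and those of the 5 ligands lie between 2551 and 27751.

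Among the ligand genes the best site was in lin-44, the Wnt that orients cells of the tail. It lay in an intron 2641 bp downstream of the start (chrI:4128469-4128924), at pooled rank 2551 (signal 99.9), rank 3576 in replicate 1 and rank 2654 in replicate 2, with TAATTR within 50 bp. The other 4 ligands had weaker best sites, and these were not at the same height in both replicates. For cwn-1 the best pooled rank was 3546 (signal 89.5), with ranks 6378 and 2110 in replicates 1 and 2, in an untranslated exon of the gene itself. For mom-2, the ligand that polarises the early endomesoderm precursor, it was 5907 (signal 75.8; replicate ranks 6182 and 15977), and the summit was nearer to the start of mpdu-1. For egl-20, which guides neuroblast migration along the body axis, it was 11284 (signal 60.4; replicate ranks 13985 and 25540), nearer to dct-15. For cwn-2, a Wnt of the embryonic nervous system, it was 27751 (signal 39.7), close to the end of the list, with a summit in replicate 1 (rank 21040) and none within 100 bp in replicate 2. In all, the ligand windows held 15 pooled summits, 5 of them with TAATTR and 1 in each gene. The median of the 5 best ranks was 5907, against 6157 over all genes with any pooled summit.

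The genes that process or restrain ligands differed among themselves. The strong member was mom-1, the Porcupine-type acyltransferase that adds lipid to Wnt proteins. Its first thresholded site (chrX:6292241-6292424) had pooled rank 98 (signal 407) and ranks 90 and 105 in replicates 1 and 2, without TAATTR. That summit lay inside a tRNA gene (WBGene00023133), 800 bp upstream of mom-1 and nearer to lev-9, 580 bp upstream of its start. The second (chrX:6296295-6296750), in a mom-1 intron 3411 bp downstream of the start, had pooled rank 251 (signal 262) and ranks 165 and 403. It held TAATTR centred 21 bp from the summit and no other start was nearer. Neither of the other members was thresholded. At sfrp-1, a secreted Frizzled-related inhibitor, the best site was in the promoter (968 bp upstream) at pooled rank 2550, with TAATTR, and at mig-14, the Wntless-type carrier of Wnt proteins, in an intron at rank 2790 without it.

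Of the 6 receptor genes 3 had a thresholded site, 2 were in the top set of each replicate (a replicate's own strongest peaks, as many as were thresholded) and 1 was in both top sets. For the 15 intracellular genes these counts were 4, 5 in each replicate and 3. Over all genes 10.1% had a thresholded summit, 10.0% one in the top set of replicate 1 and 9.71% one in that of replicate 2. The share of all genes in both top sets was not counted. The strongest receptor site was at mom-5, the Frizzled receptor of the early embryo, in its promoter 741 bp upstream of the start (chrI:9964605-9965060; pooled rank 456, signal 195). It had ranks 433 and 648 in replicates 1 and 2 and 2 TAATTR words, the nearer centred 7 bp from the summit. In lin-17, a Frizzled receptor of asymmetric divisions, the site lay in an intron 906 bp downstream of the nearest of 5 starts (chrI:2710631-2711086; pooled rank 885, signal 147), and the ranks were 880 and 1274, so it was not in the top set of replicate 2. Its TAATTR was centred 3 bp from the summit. In cam-1, the Ror receptor kinase, the thresholded site lay in an intron 1415 bp downstream of a start (chrII:9308661-9309116; pooled rank 743, signal 157), and ranked 1644 in replicate 1 and 606 in replicate 2. It had no TAATTR, and its printed sequence holds a run of GA repeats. A separate cam-1 site 3375 bp upstream of a start was just below the threshold (pooled rank 1313, signal 125; replicate ranks 5880 and 1001) and had the word.

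The 3 other receptors were below the threshold. For mig-1, a Frizzled receptor in neuroblast migration, the best pooled rank was 1679 (signal 115), in an intron with TAATTR. That site had rank 1382 in replicate 2 and no summit within 100 bp in replicate 1. The best mig-1 summit of replicate 1 (rank 2039) was matched to the summit of an overlapping pooled peak (pooled rank 10414). For cfz-2, a Frizzled receptor, it was 5848 (signal 76.0; replicate ranks 8061 and 7125), in a coding exon. For lin-18, the Ryk receptor, it was 15146 (signal 53.6), found in replicate 2 (rank 9365) and not in replicate 1, and lin-18 was 1 of the 3 Wnt genes whose pooled summits all lacked TAATTR, with gsk-3 and bar-1.

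Inside the cell, the highest ranks were at the genes of the SYS-1 and POP-1 pair. The sys-1 window held the 2 strongest intracellular sites, and both were closer to other genes. The first (chrI:9979798-9980019; pooled rank 77, signal 459; replicate ranks 56 and 96) lay in the promoter of the translation factor gene eif-3.C, 249 bp upstream of its start. The other (chrI:9988881-9989070; pooled rank 131, signal 365; replicate ranks 64 and 236) lay 180 bp upstream of the start of the histone gene his-67. Neither had TAATTR. Of the sites nearest to the sys-1 start itself, the best was 1057 bp upstream, below the threshold (pooled rank 2558, signal 99.7; replicate ranks 2362 and 5418), with 2 TAATTR words, the nearer centred 4 bp from the summit.

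For pop-1, the TCF factor, both thresholded sites were nearest to its own start. The stronger lay in an intron 3204 bp downstream (chrI:2827059-2827179; pooled rank 165, signal 326), was at rank 153 in each replicate and held 2 TAATTR words. It was the Wnt site with the closest ranks in the 2 replicates. The weaker lay 1304 bp upstream of the start, in the non-coding RNA gene W10C8.8 (chrI:2831387-2831842; pooled rank 835, signal 150; replicate ranks 588 and 1514), without the word. The beta-catenin genes wrm-1 and bar-1 had weaker sites. For wrm-1 the best pooled rank was 4705 (signal 81.9), found in replicate 1 (rank 1934) and not in replicate 2. For bar-1, the beta-catenin of canonical signalling, it was 13279 (signal 56.7), found in replicate 2 (rank 7701) and not in replicate 1.

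The other intracellular sites were uneven between replicates. In lit-1, the Nemo-like kinase, the thresholded site (chrIII:13721089-13721544; pooled rank 877, signal 147) lay in an intron 1921 bp downstream of the nearest of 7 starts. It ranked 632 in replicate 1 and 3736 in replicate 2, where a different lit-1 summit was the best, at rank 819. The 101 bp printed for it were 78.2% G and C, the highest of the 12 sites, and held no TAATTR. At mig-5, a Dishevelled gene, the promoter site 147 bp upstream of the start (chrII:8184942-8185397; pooled rank 914, signal 145) ranked 7319 in replicate 1 and 399 in replicate 2. This was the largest gap between replicates of the 12, and mig-5 was the last Wnt gene inside the threshold. A second Dishevelled gene, dsh-2, was the first outside it: its promoter site 257 bp upstream had pooled rank 1224 (signal 129) and ranks 5412 and 592. At dsh-1, the third, the best pooled rank was 9360.

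The kinase branch and destruction complex were below the threshold apart from lit-1. For tap-1, which encodes a relative of TAB1, a partner of TAK1 kinases, the best pooled rank was 1308 (signal 125), with ranks 788 and 11997 in replicates 1 and 2. That summit held TAATTR and was nearer to the start of C44H4.4. For mom-4, the TAK1-type kinase, the best pooled rank was 5128. Of the destruction complex, apr-1 (APC) had 1475, gsk-3 1804, axl-1 (Axin) 2308, kin-19 (casein kinase 1) 4074 and pry-1 (Axin) 7439 as best pooled ranks, and in apr-1, gsk-3 and axl-1 that summit was nearest to the start of another gene.

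Of the planar polarity genes, prkl-1 (Prickle) had a thresholded site in an intron, 1581 bp upstream of its nearer start (chrIV:6984923-6985378; pooled rank 481, signal 190; replicate ranks 465 and 672), with TAATTR centred 27 bp from the summit. For vang-1 (Van Gogh) the best site was in the promoter, 387 bp upstream, at pooled rank 1479 (signal 121; replicate ranks 1503 and 2671), without the word and in the non-coding RNA gene F53B3.12.

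**Figure D2:**
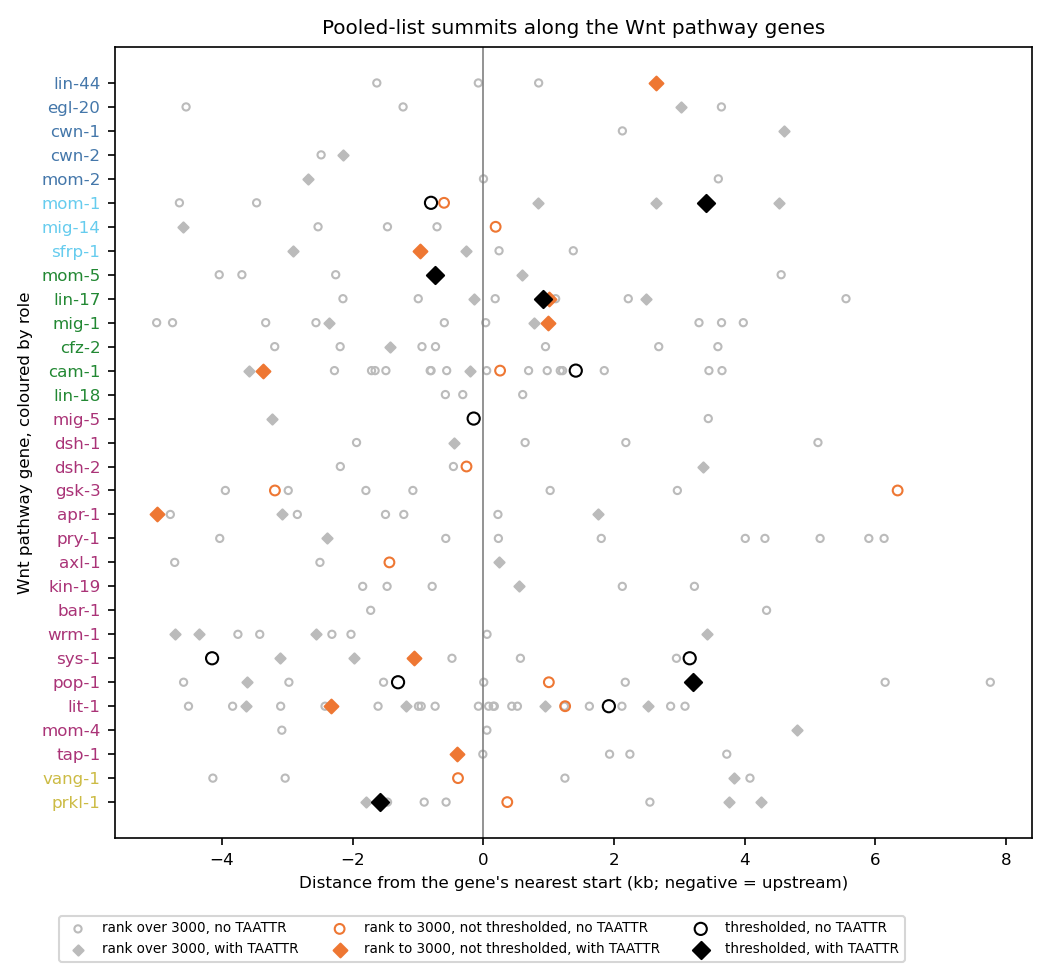
Every pooled summit in the windows of the 31 genes by its distance from the gene's nearest annotated start (kb, negative upstream), with filled diamonds for summits with TAATTR within 50 bp and open circles for those without. The 12 thresholded summits (black) lie from 4149 bp upstream to 3411 bp downstream, and the ligand rows hold none.

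The replicates were then compared site by site. Thresholded peaks were kept by a step that selects for reproducibility, so their presence in both replicates follows in part from the selection. All 12 thresholded Wnt sites had a summit within 100 bp in each replicate, at offsets of up to 72 bp, and 95.6% of all 932 thresholded summits in gene windows were likewise found in both. The top set of replicate 1 held 10 of the 12, that of replicate 2 held 9, and 7 were in both: both sites at sys-1 and at mom-1, the pop-1 intron, mom-5 and prkl-1. The other 5 (cam-1, the upstream pop-1 site, lit-1, lin-17 and mig-5) were outside it in 1 replicate, and these had the 5 lowest pooled signals of the 12, from 145 to 157. The shares of all 932 summits in the top sets were not counted. By gene, 5 of the 9 Wnt genes with a thresholded summit had such a site in both top sets, against 1276 of 2025 over all genes. Counting genes by top set instead, replicate 1 had 9 of 31 Wnt genes (10.0% of all genes) and replicate 2 also had 9 (9.71% of all genes), 6 of which were in both: lit-1, mom-1, mom-5, pop-1, prkl-1 and sys-1. For lit-1 the top-set summit was a different one in each replicate. The share of all genes in both top sets was not counted. Replicate 1 added apr-1, lin-17 and tap-1, and replicate 2 added cam-1, dsh-2 and mig-5. No ligand gene was among them in either replicate.

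**Figure D3:**
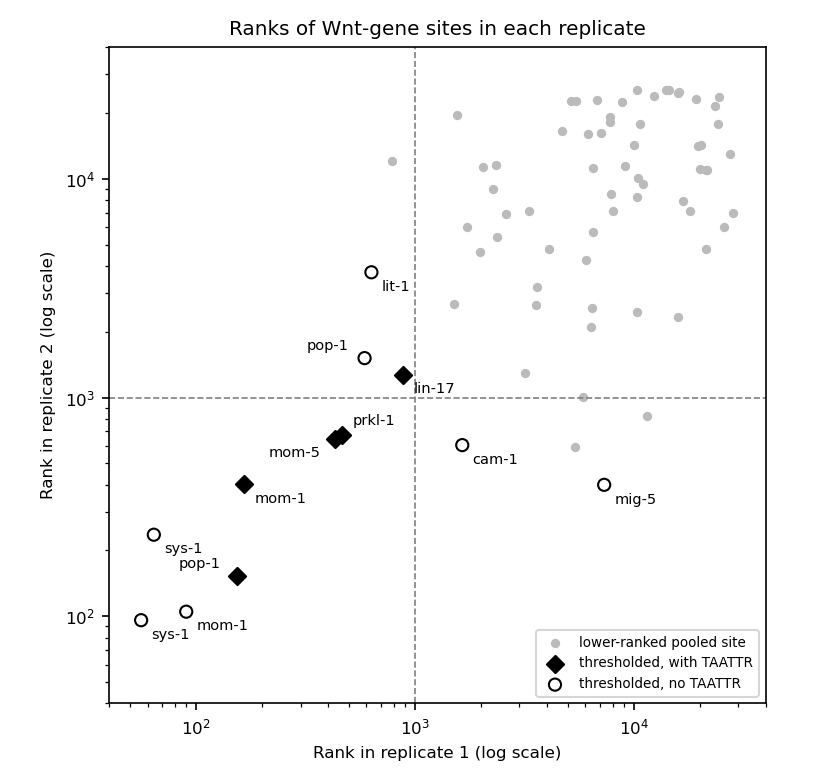
Rank in replicate 1 against rank in replicate 2 (log scales) of the Wnt sites found in both, with thresholded sites in black and named, and 63 lower-ranked sites in grey; dashed lines mark the end of each top set. The 7 sites in the lower left corner are in both top sets, and of the thresholded sites mig-5 and lit-1 lie farthest from the diagonal.

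Which gene a site belongs to changes the picture for 1 member. With only the summits whose nearest protein-coding start is the Wnt gene's own, 9 of the 12 sites and 8 of the 31 genes were kept, against 4.19% of all genes. The gene lost was sys-1, and mom-1 kept its intron site. The 3 sites lost were the 2 at sys-1 and the tRNA gene site at mom-1, which were at pooled ranks 77, 98 and 131, the 3 best of the 12, and none had TAATTR. Nearness does not show which gene a site acts on.

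Other ways of counting were set beside the same count over all genes. Among the 499 strongest thresholded peaks 5 Wnt genes had a summit, against 5.40% of all genes. When a site also had to be in the top set of each replicate it was again 5, against 6.39%. The 5 genes were sys-1, mom-1, pop-1, mom-5 and prkl-1 in both counts. With a window of 2000 bp it was 8 (5.88%), with windows around starts alone 9 (9.98%), and without sites at tRNA genes 9 (8.84%).

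The homeodomain core was within 50 bp of 5 of the 12 thresholded Wnt summits (41.7%, exact 95% interval 15.2 to 72.3%): pop-1, mom-1, mom-5, prkl-1 and lin-17. Over all 932 thresholded summits in gene windows it was 32.0% (29.0 to 35.1%). In windows centred 500 bp to each side the share was 8.33% for the Wnt sites and 12.1% for all. Of the 3 thresholded receptor sites 2 had the word, and of the 6 intracellular sites 1 did. Summits with the word had a median of 44.6% G and C (37.6 to 58.4%, n = 5) and those without it 52.5% (43.6 to 78.2%, n = 7), and the part of base composition was not tested.

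Below the threshold, the Wnt windows held 207 further pooled summits, of which 51 had TAATTR (24.6%, 18.9 to 31.1%), against 25.4% of the 27779 lower-ranked summits in all gene windows. In the flanks it was 13.3% for Wnt sites and 10.8% for all. By rank class, from the threshold to rank 3000 it was 9 of 20 (45.0%, 23.1 to 68.5%) at Wnt genes and 37.7% over all genes, at ranks 3001 to 10000 17 of 62 (27.4%) and 30.2%, and at ranks 10001 to 30000 25 of 125 (20.0%) and 22.5%. In each class the interval of the Wnt share held the share over all genes, and the difference was not tested. The intervals treat each summit as separate, though some peaks overlap. Between thresholded Wnt sites and those down to rank 3000 (41.7% against 45.0%) the intervals overlap, and the difference was not tested.

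**Figure D4:**
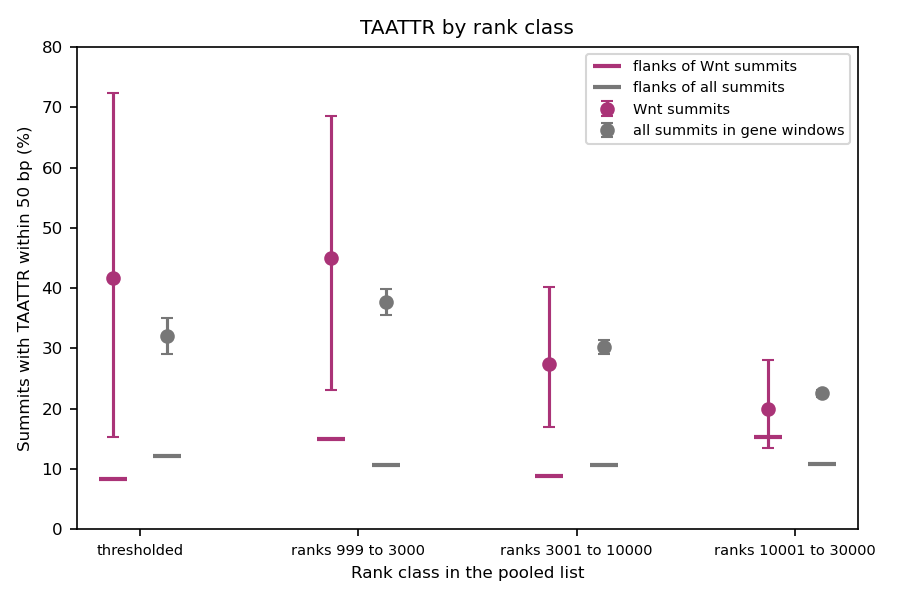
Percent of summits with TAATTR within 50 bp in 4 rank classes, for Wnt genes and for all gene windows; bars are exact 95% intervals and dashes are the flank shares. The Wnt share goes from 41.7% in thresholded sites and 45.0% from there to rank 3000 to 20.0% at ranks 10001 to 30000, where the flank share is 15.2%.

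Lower-ranked and thresholded Wnt sites were also compared by place and by how often the replicates shared them. Places refer to protein-coding genes only, which need not be the Wnt gene. A site between protein-coding genes may lie in a non-coding gene. Of the thresholded sites 5 lay in promoters (up to 1000 bp upstream of a start), 6 in introns, 1 between protein-coding genes (the pop-1 site in W10C8.8) and 0 in coding exons. Over all genes the thresholded shares were 45.3%, 26.2%, 23.1% and 2.25%. Of the thresholded promoter sites in Wnt windows, those at mom-5 and mig-5 were placed in the promoter of the Wnt gene. The others were placed in the promoters of lev-9, eif-3.C and his-67. Of the lower-ranked sites 40 (19.3%) lay in promoters, 73 (35.3%) in introns, 59 (28.5%) between genes and 23 (11.1%) in coding exons. Over all genes 6934 of the 27779 lower-ranked sites lay in promoters, and the shares in introns, between genes and in coding exons were 33.1%, 20.5% and 16.1%. A summit within 100 bp was found in both replicates for 63 of the 207 (30.4%), against 27.6% over all genes, and for 14 of the 20 down to rank 3000 (70.0%), against 82.7%. The relaxed lists were cut off at different depths, so a missing weak site is not absence of binding.

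Summits of any strength were also counted. Summits of overlapping peaks were counted separately, and the part of such overlap in the counts was not tested. The Wnt windows held a median of 6 pooled summits per gene (range 2 to 26) against 3 over all genes, or 58.2 against 29.1 per 100 kb of window. The difference was of the same kind in each replicate's own list, 57.1 against 29.3 per 100 kb in replicate 1 and 45.2 against 25.5 in replicate 2. By role it was 30.0 per 100 kb for ligands, near the value over all genes, and 72.9 for receptors and 60.9 for intracellular genes. Of 20 further genes tied to the pathway, 9 components had 46.9 and 11 targets 48.8 per 100 kb, also above the value over all genes. The fullest windows were those of lit-1 (26 summits) and cam-1 (20), also the longest at 27.4 and 21.3 kb. At a rank of 3000 or better, 19 of 31 Wnt genes had a summit, against 25.2% of all genes, with lin-44 the only ligand.

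Of these further genes, 3 of 9 components and 2 of 11 targets had a thresholded summit, against the same 10.1%. The components were fmi-1, the Flamingo cadherin of planar polarity (pooled rank 639; replicate ranks 392 and 7217; promoter, with TAATTR), cdh-4, a Fat-like cadherin (468; 1998 and 699; promoter, with TAATTR), and hmp-2, the beta-catenin of cell junctions (136; 134 and 152), whose site was nearer to K05C4.7 and had no TAATTR. The targets were the neighbouring GATA factor genes egl-18 and elt-6. An egl-18 intron held a site at pooled rank 227 (ranks 232 and 231 in the replicates) with 2 TAATTR words, and a site at rank 432 (ranks 621 and 373), also in an egl-18 intron, lay 1538 bp upstream of elt-6 and was counted for both. Components without a thresholded summit were unc-37, plr-1, vps-35, snx-3, mtm-6 and lin-23, and targets without one were mab-5, lin-39, egl-5, end-1, end-3, ceh-22, psa-3, ceh-10 and ttx-3.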

How the data were processed

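CEH-43 ChIP-seq was carried out on embryos in 2 biological replicates of 1 group. Per the labels, sonication gave fragments of 200 to 800 bp, and immunoprecipitation used anti-GFP. Per the deposited notes, each relaxed list was derived from replicate alignments and a control alignment on ce11, and the thresholded list from an irreproducible discovery rate step. For the peak caller, aligner and cutoff, names were not given in the sources used here. The signal value of each peak is as the authors deposited it, on an unstated scale, and the −log10 q-value, deposited in the same files, was not used. Peaks were ranked by signal within each list, mitochondrial peaks keeping their ranks. Genes came from Ensembl release 115 and sequence from RefSeq, both WBcel235, and all peaks lay within its chromosome lengths. TAATTR was looked for on either strand up to 50 bp from a summit, and flanks were the same windows 500 bp away. Shares have exact Clopper-Pearson 95% intervals, which cover counting error only. They treat summits of overlapping peaks as separate. Sites were matched between lists within 100 bp, taking the strongest. Every summit was given 1 place, in the order promoter, coding exon, untranslated exon, intron, intergenic. No test was made: the samples form 1 group. The members, roles, gene lists and alternatives were chosen with earlier results of these data known. All members are named, with full values for those with a thresholded summit and for the best sites of ligands, receptors, beta-catenins and the TCF gene, and the further genes with a thresholded summit are named. Window and matching functions were tested on simulated data. Python 3.11.15, scipy 1.17.1 and matplotlib 3.10.9 were used.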

Additional observations from a re-analysis of the deposited data

How the results depend on the processing

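The count of 9 Wnt genes with a thresholded summit was 5 among the 499 strongest thresholded peaks (5.40% of all genes) and 5 when a site also had to be in the top set of each replicate (6.39% of all genes). It was 8 or 9 in the other 6 alternatives: a window of 2000 bp, starts alone, nearest start, either replicate left out (9 each) and sites at tRNA genes left out. With a replicate left out, genes were counted by the top set of the other, and the genes changed. Replicate 1 alone lacked cam-1 and mig-5 and had apr-1 and tap-1 (10.0% of all genes). Replicate 2 alone lacked lin-17 and had dsh-2 (9.71% of all genes). The TAATTR share of lower-ranked Wnt sites moved from 24.6% to 16.4% within 25 bp, 39.1% within 100 bp, 13.0% for TAATTA alone and 45.0% for sites down to rank 3000. A narrower or wider window and a narrower word change the share by construction, and for the higher share down to rank 3000 the cause was not tested. The share at thresholded sites stayed between 33.3% and 55.6%, inside its interval, over 7 alternatives. Those that left a replicate out took the top set of the other. All 12 sites were found in each replicate within 100 or 200 bp, and 11 within 50 bp, which the selection of thresholded peaks favours.

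With 12 thresholded sites, a share of TAATTR has an interval as wide as 15.2 to 72.3%. Signal tracks, the control and an untagged strain were not analysed here, so whether a peak is specific to CEH-43 was not tested. Peaks in mixed embryos do not show in which cells a Wnt gene was bound, and no expression was measured.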

Other observations

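At some Wnt genes a summit ranked high in 1 replicate, lower in the pooled list, and had no summit within 100 bp in the other replicate. At pry-1, an Axin, 1 summit had rank 1226 in replicate 2 and 9402 in the pooled list. A mom-4 summit had rank 1834 in replicate 1 and 5196 in the pooled list, and a kin-19 promoter summit had rank 1615 in replicate 2 and 4074 in the pooled list. These summits were picked after their values were seen.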
